A study of Mus musculus with 8 samples.

Results

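Binding of Flag-tagged HoxB4 was described at the 7 genes of the Fos and Jun families, Fos, Fosb, Fosl1, Fosl2, Jun, Junb and Jund, in hematopoietic progenitors derived from mouse ES (embryonic stem) cells. The genes were chosen by name, with earlier results of these data known. Their probes were those whose annotation in the array files names the gene (Jund is called Jund1 there). They are 7 of 16868 genes on the promoter arrays and hold 247 of 473585 probes. Array 1 carried Fosb, Fosl2, Jun, Junb and Jund, and array 2, with another set of probes, carried Fos and Fosl1.

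The ChIP DNA came from cells transduced with a retrovirus for HoxB4 carrying a 3xFLAG tag. These cells descend from c-Kit+ CD41+ precursors of the ES cell line B6N-22UTR, sorted out of embryoid bodies on day 6 and cultured on OP9 stromal cells, and c-Kit+ cells were recovered with magnetic beads at day 12 of the co-culture. Both channels of an array held DNA of these HoxB4-expressing cells, the Flag immunoprecipitate (Flag-IP) in the red channel (Cy5) and input DNA in the green channel (Cy3), each amplified with T7 RNA polymerase. An immunoprecipitate from cells without tagged HoxB4 was not analysed here, and each region was measured on 1 array. There was thus no replicate and no test of any value below, and the spread given is that between neighbouring probes of the same hybridisation. The probe sets of the 6 expression arrays of the study, with the groups HoxB4 and iHoxB4 set against MigR1 (n = 2 each), were not joined to genes here, so the transcript levels of the Fos and Jun genes and of cell type markers were not analysed.

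Fos and Jun proteins form AP-1, a dimeric transcription factor held together by leucine zippers, which binds palindromic elements in promoters and enhancers. Jun proteins can pair with each other or with a Fos protein, whereas Fos proteins need a Jun partner. Several of these genes are immediate early genes, switched on within minutes of growth factor or stress signals through MAP kinases, the serum response factor and CREB-like factors. In the blood system AP-1 is known for its part in myeloid differentiation, and mice that lack Junb in blood stem cells develop a myeloproliferative disease.

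The proximal promoters of 3 of the genes are shown, Jun and Fosl2 because they carried the highest array signal among the 7 genes and Fos because it is the classical immediate early promoter of the family. They are the 250 bases upstream of the start in RefSeq on GRCm38.p6, written 5′ to 3′ on the strand of the gene, at chr4:95052223-95052472 (minus strand) for Jun, chr5:32136222-32136471 (plus strand) for Fosl2 and chr12:85473640-85473889 (plus strand) for Fos. Capitals mark matches to the motifs described next.
Jun: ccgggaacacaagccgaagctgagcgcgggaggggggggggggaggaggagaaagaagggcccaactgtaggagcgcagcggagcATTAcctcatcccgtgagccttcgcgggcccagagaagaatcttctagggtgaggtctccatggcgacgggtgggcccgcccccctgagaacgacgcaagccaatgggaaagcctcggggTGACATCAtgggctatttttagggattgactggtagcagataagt
Fosl2: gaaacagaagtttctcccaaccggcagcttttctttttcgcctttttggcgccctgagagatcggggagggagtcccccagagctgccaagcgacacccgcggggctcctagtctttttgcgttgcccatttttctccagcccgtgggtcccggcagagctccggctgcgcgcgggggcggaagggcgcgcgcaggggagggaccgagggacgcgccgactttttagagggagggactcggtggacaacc
Fos: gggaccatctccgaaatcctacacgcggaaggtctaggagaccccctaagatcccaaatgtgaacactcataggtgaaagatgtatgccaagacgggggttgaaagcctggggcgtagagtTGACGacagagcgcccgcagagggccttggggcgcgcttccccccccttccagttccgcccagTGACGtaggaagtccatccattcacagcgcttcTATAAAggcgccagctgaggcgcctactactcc

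Both strands were searched for the homeobox core TAAT, the Hox-Pbx element TGATTNAT, the AP-1 site TGANTCA, the related element TGANNTCA, the core TGACG of a cAMP response element and the TATA box core TATAAA. The cAMP element's core can lie within TGANNTCA, and in these 3 promoters no matches overlapped. The Jun promoter held TAAT, read as ATTA on the printed strand, at -165 to -162 and TGANNTCA as TGACATCA at -45 to -38. The Fos promoter held TGACG at -129 to -125 and at -66 to -62, and TATAAA at -33 to -28. The Fosl2 promoter held 0 of the 6 motifs in this window. Of all 32851 promoters in the RefSeq table, 54.9% held TAAT, 2.82% TGATTNAT, 6.75% TGANTCA, 11.9% TGANNTCA, 17.8% TGACG and 12.4% TATAAA in the same span. The table matched 6 of the 7 genes, all but Fosl1, and 0 of those 6 held TGATTNAT or TGANTCA there. GC content was 61.2% for Jun, 64.4% for Fosl2 and 58.4% for Fos, against a median of 52.4% over all promoters. No source used here names the genome build of the array probes, so the sequences under the probes were not read and the start used by the array was not set against that of RefSeq.

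Array values are log2 of Flag-IP over input, centred on the median of each array, so that 0 is the typical probe of that array. A window is the median of 3 neighbouring probes of a gene, and positions are in bp from the gene start of the array annotation, negative upstream. Neighbouring probes lay a median of 177 bp apart and differed by a median of 0.44 within the 7 genes, against 0.50 over both arrays. Of the 247 probes, 242 were well above background in Flag-IP and input, against 95.3% of all probes on each array. The log ratio rose with brightness on both arrays: the fitted trend was -0.89 at the 10th percentile of brightness on each array and 0.60 (array 1) or 0.52 (array 2) at the 90th. Values with this trend removed, and values after limma's normexp background correction of the mean intensities, are therefore given beside the main ones.

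Jun and Fosl2 carried the highest windows, 1.57 and 1.54, and Fosb followed with 1.17, while Junb (0.99), Fosl1 (0.96), Fos (0.93) and Jund (0.86) stayed below 1. Thus 3 of the 7 genes reached a log2 ratio of 1, against 41.8% of 16627 genes with a window, a share near that background. The count was 3 of 7 with the brightness trend removed, against 34% of all genes, and 6 of 7 with normexp, against 50.4%. Without centring it was also 6 of 7, against 46.6%. None of the 7 reached 2, a level that 2.9% of genes reached. Neighbours in this order differed by less than the 0.44 by which neighbouring probes typically differed. Without a replicate the order of any adjacent pair is not resolved, and Jun and Fosl2 cannot be told apart. Among all genes, the highest window of Jun stood at percentile 89.1, Fosl2 at 88.0, Fosb at 69.9, Junb at 57.3, Fosl1 at 55.3, Fos at 53.2 and Jund at 47.5. These percentiles are not matched for the number of windows from which the highest was taken. In the same order the genes had 37, 34, 31, 58, 24, 15 and 27 windows, where the median gene had 25. The median over the 7 genes was 0.99, against 0.89 over all genes. Of single probes on the main scale, 45 of 247 reached 1, which is 18.2%, against 8.9% of all probes with a gene. These 45 came mostly from Fosl2 (14), Jun (12) and Fosb (9). With the trend removed fewer of the 247 reached 1, and the share over all probes was not counted on that scale. Median input brightness of the 7 genes lay above the array median, from 0.13 in Jund to 0.61 in Junb on the log2 scale.

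**Figure D1:**
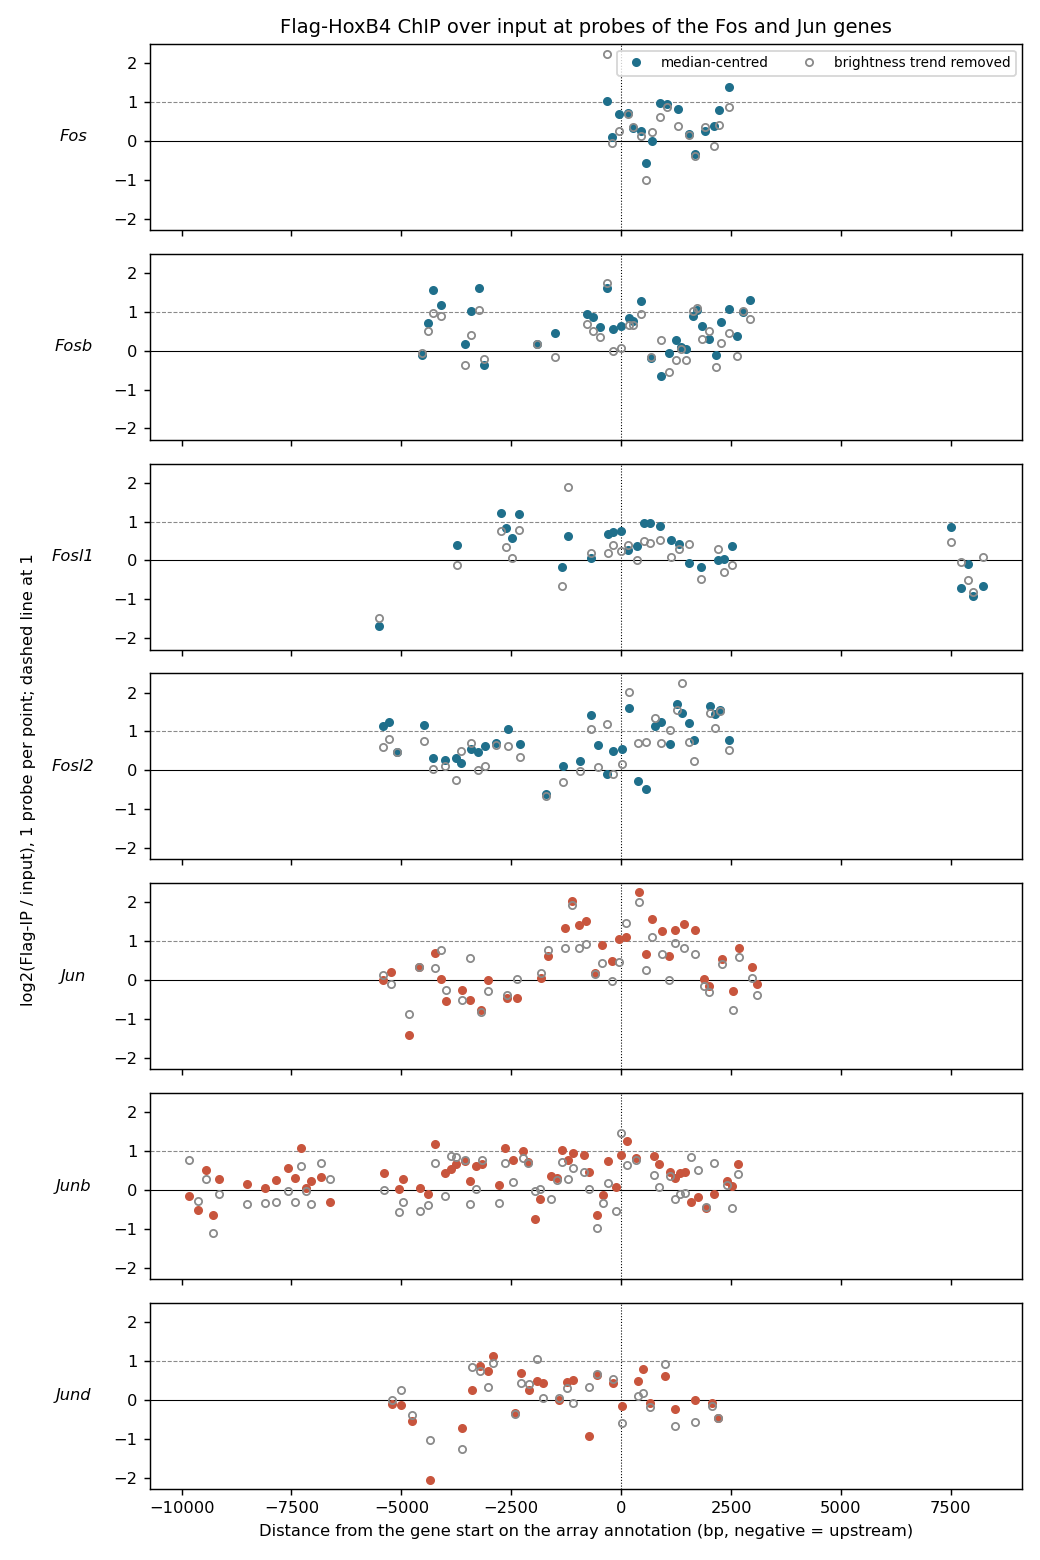
Log2 Flag-IP over input (y axis) against distance from the gene start in bp (x axis) for every probe of the 7 genes, Fos genes in blue and Jun genes in red; filled points are median-centred values, open points have the brightness trend removed, and the dashed line marks 1. Jun shows high probes from -1282 to 1677 bp with lower ones on either side, Fosl2 shows its longest run of high probes downstream of the start, with further high probes upstream, and Jund has 1 filled point above 1.

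Fos, the prototype of the family, has probes only from -314 to 2443 bp. Its 17 probes ranged from -0.56 through a median of 0.38 to 1.39 (SD 0.51), and 2 reached 1. The highest Fos window lay inside the gene, centred at 893 bp on chromosome 12 from 86363686 to 86364079, with probes from -0.02 to 0.97 (SD 0.56). Near the start, within 500 bp, the mean was 0.52 (SD 0.35 over 6 probes). The highest of these 6, 1.02 at -314 bp, was not well above background in both channels, with a Flag-IP intensity of 236 against 111 in input. After removal of the brightness trend the highest window of Fos was 0.61, at percentile 32.1 of all genes.

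Fosb, the close relative of Fos, showed signal at a distal upstream stretch and around its start. Its 35 probes ranged from -0.66 through a median of 0.62 to 1.61 (SD 0.57), and 9 of them reached 1. The highest window, centred at -4105 bp on chromosome 7 from 18472099 to 18472864, had probes of 1.57, 1.17 and 0.18 (SD 0.71). Of 31 Fosb windows 5 reached 1 on the main scale, against 6.54% of all windows of genes. All 5 lay upstream, between -4272 and -3232 bp. With the trend removed the probes at -4272, -4105 and -3232 bp read 0.97, 0.89 and 1.03, and no upstream window reached 1. A run of 9 neighbouring probes from -766 to 443 bp stayed at or above 0.5, with a mean of 0.90. The mean within 500 bp of the start was also 0.90 (SD 0.40 over 7 probes), second to Jun among the 7 genes. The highest window was 1.03 with the trend removed, centred at 1724 bp instead, and 1.59 with normexp.

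Fosl1 and Fosl2 encode Fra-1 and Fra-2, Fos proteins without the strong activation domain of Fos and FosB. The 29 probes of Fosl1 ranged from -1.68 through a median of 0.40 to 1.21 (SD 0.67), and 2 reached 1. Its highest window, 0.96, was centred at 509 bp on chromosome 19 from 5448027 to 5448389 (probes from 0.38 to 0.97), and 4 neighbouring probes from -2740 to -2323 bp averaged 0.95. Near the start the mean was 0.56 (SD 0.23 over 5 probes).

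Fosl2 differed on the main scale in where its signal lay. Its 36 probes ranged from -0.62 through a median of 0.68 to 1.72 (SD 0.61), the highest median of the 7 genes, and 14 reached 1. The highest window lay inside the gene at 2137 bp, on chromosome 5 from 32415120 to 32415382. Its probes at 2029, 2137 and 2242 bp read 1.64, 1.44 and 1.54 (SD 0.10), the narrowest spread among the highest windows of the 7 genes. Their Flag-IP intensities were 1795, 2184 and 1408, against input intensities of 552, 772 and 464. Of 34 Fosl2 windows 12 reached 1, of which 10 lay downstream of 500 bp, 2 upstream of -500 bp and 0 between. On the main scale a run of 11 neighbouring probes from 780 to 2454 bp stayed above 0.5 and averaged 1.24. Its probe at 1388 bp (1.47) was not well above background in both channels. With normexp the run was broken, as the probes at 780, 1102 and 1388 bp read 0.31, -0.08 and -0.34. Within 500 bp of the start the mean was lower, 0.46, and uneven (SD 0.74 over 5 probes, from -0.28 to 1.61). After removal of the trend the highest window was again 1.54, at percentile 94.0, but was centred at 1263 bp. With normexp it was 1.27, at percentile 68.7. Under both alternatives 1 of the 3 probes of the window was not well above background in both channels.

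Jun, the family's main partner of Fos and a target of the JNK kinases, had the highest single probes. Its 39 probes ranged from -1.41 through a median of 0.49 to 2.27 (SD 0.82), and 12 reached 1. The 2 member probes at or above 2 were both in Jun, at -1127 bp (2.04) and at 406 bp (2.27), where 0.642% of all probes with a gene reached 2. The probe at 406 bp read a Flag-IP intensity of 2499 against 496 in input. The highest window, on chromosome 4 from 94543475 to 94543825, was formed by this probe and those at 555 and 708 bp, which read 0.68 and 1.57. The probe at 555 bp had 1850 in Flag-IP against 1108 in input, so the window's spread (SD 0.80) was wide.

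The Jun signal fell into separate stretches, which were read off the probe values. Upstream, 4 neighbouring probes from -1282 to -801 bp ranged from 1.33 to 2.04 (mean 1.57, SD 0.32). Around and inside the gene, 10 neighbouring probes from -51 to 1677 bp ranged from 0.62 to 2.27 (mean 1.26, SD 0.47). The 3 probes between them, from -603 to -212 bp, were lower at 0.18 to 0.91 (mean 0.53, SD 0.36). With the trend removed these 3 averaged 0.20, below 1.12 upstream and 0.85 downstream. With normexp they averaged 1.35, between 1.51 upstream and 1.27 downstream, so the dip was present with the trend removed and absent under normexp. The probe at -603 bp was the brightest of them, with an input intensity of 31412. Beyond the stretches the values lay near 0: 15 probes further upstream averaged -0.16 (SD 0.55) and 7 further downstream 0.17 (SD 0.41). Of 37 Jun windows 14 reached 1 on the main scale, against 6.54% of all windows of genes. Of these, 4 lay upstream of -500 bp, 3 near the start and 7 downstream. With the trend removed fewer Jun windows reached 1, and no upstream one did. The probes at -1282, -1127, -962 and -801 bp then read 0.81, 1.92, 0.83 and 0.93. The highest Jun window was 1.47 with the trend removed and 1.81 with normexp, both at percentile 92.0.

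Junb, whose protein often opposes Jun and restrains the cell cycle, had many probes and, on the main scale, no window that reached 1. Its 62 probes ranged from -0.76 through a median of 0.35 to 1.25 (SD 0.48), and 5 reached 1. The highest window, 0.99 at -2452 bp on chromosome 8 from 87871062 to 87871513, came from 58 windows, where the median gene had 25. It lies in a stretch that the annotation calls a divergent promoter: 34 of the Junb probes, from -9821 to -1962 bp, are also assigned to the neighbouring gene Hook2, an adaptor of microtubule motors, and averaged 0.32 (SD 0.47). The highest Junb window was 0.85 with the trend removed and 1.42 with normexp (percentile 77.8), both within that stretch. Signal in that stretch cannot be assigned to either gene. On Junb's own side, 5 neighbouring probes from -13 to 852 bp averaged 0.90, and the probe at 135 bp was the highest of the gene.

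Jund, the broadly expressed member of the family, had the lowest median probe of the 7 genes and, on the main scale, the lowest top window, a place that Fos took with the trend removed and with normexp. Its 29 probes ranged from -2.07 through a median of 0.24 to 1.11 (SD 0.65), and 1 reached 1. Its highest window was 0.86, centred at -3036 bp on chromosome 8 from 73624706 to 73625045 (probes from 0.73 to 1.11). Jund also had the lowest window of the 7 genes, -0.72 at -4351 bp, and 1 of its 3 probes, at -2.07, was not well above background in both channels. That window was -1.02 with the trend removed.

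No window of the 7 genes reached a log2 ratio of -1 on the main scale. Their lowest windows were -0.72 in Jund, -0.71 in Fosl1, -0.52 in Junb, -0.51 in Jun, -0.28 in Fosl2, -0.18 in Fosb and -0.02 in Fos. The count of 0 of 7 stands against 54.1% of all genes with a window at or below -1. After removal of the trend 1 of 7 did, Jund, against 28.6% of all genes, and with normexp 0 of 7, against 6.83%. The median lowest window of all genes was -1.08, and -0.71 with normexp.

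Around gene starts all 7 genes lay above the array median. The mean over probes within 500 bp of the start was 1.17 in Jun (SD 0.66 over 5 probes), 0.90 in Fosb, 0.61 in Junb (SD 0.53 over 6), 0.56 in Fosl1, 0.52 in Fos, 0.46 in Fosl2 and 0.38 in Jund (SD 0.40 over 4). This mean was above 0 in 7 of 7 genes, against 73.2% of 16206 genes, whose median was 0.32. Jun stood at percentile 93.0, Fosb at 84.8 and Junb at 70.5 of all genes, and the others ran from 68.0 in Fosl1 to 54.6 in Jund. The ranges of 1 SD around these means overlapped for every pair of the 7 genes, Jun and Jund included. These SDs are spreads between probes of a gene and not errors of the means. Without a replicate the order of the means is not resolved. Input brightness at these probes averaged 0.53 above the array median in Jun on the log2 scale and 1.06 above it in Fosl1. With the trend removed the means were 0.88 in Jun, 0.80 in Fosl2, 0.63 in Fosb, 0.60 in Fos, 0.36 in Junb, 0.25 in Fosl1 and 0.05 in Jund. Fosl2 thus moved from the sixth to the second place. The all-gene median was then 0.19, and Jund lay below it. With normexp, Jun was highest again (1.07), and Fos (0.28) and Fosl2 (0.27) were below the all-gene median of 0.47.

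**Figure D2:**
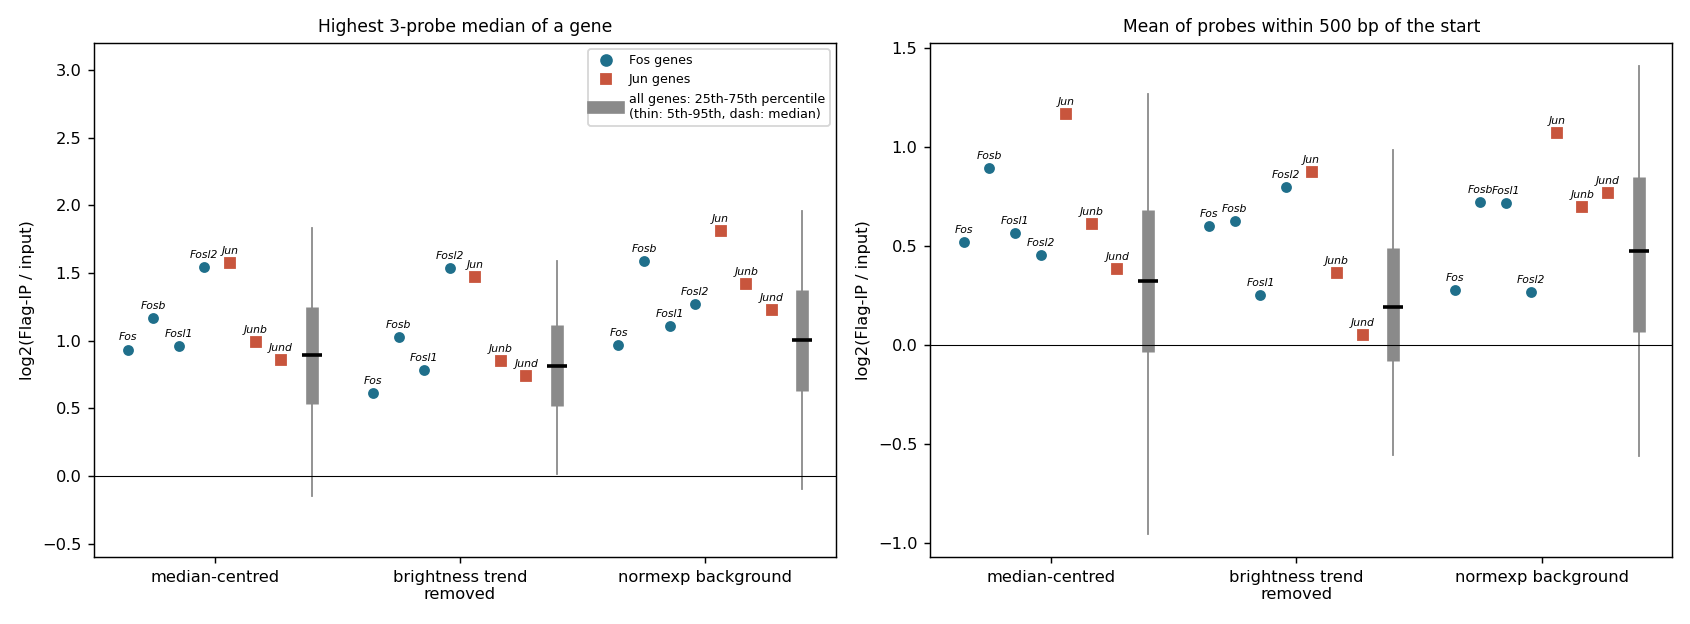
Highest window (left) and mean of probes within 500 bp of the start (right), both as log2 Flag-IP over input on the y axis, under 3 ways of processing on the x axis; labelled points are the 7 genes, and bars show all genes (thick between the quartiles, thin from the 5th to the 95th percentile, dash at the median). Jun and Fosl2 stand above the thick bar in the median-centred highest windows, and Jun stands above it near the start in each of the 3.

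The zones that held the highest means were not the same for each gene. Over all genes the mean log2 ratio peaked at 0.30 within 500 bp of the start, was -0.16 from -2000 to -500 bp and was -0.01 from 500 to 2000 bp. Jun was highest at the start (1.17), with 1.02 in the upstream zone and 0.89 in the downstream one, and dropped to -0.24 beyond -2000 bp. Fosl2 had its maximum from 2000 to 4000 bp, 1.35 over 4 probes, against -0.15 for all genes there. Fosb held 0.72 over 8 probes beyond -2000 bp, where all genes averaged -0.29. Fos, with no probe upstream of -314 bp, was 0.85 over 3 probes from 2000 to 4000 bp. Jund was -0.27 over 2 probes in that zone. On the main scale this was the 1 of 33 zone means of the 7 genes below that of all genes, and 5 of 33 were below it with the trend removed and 5 of 33 with normexp. Removal of the trend lowered the Fos mean from 2000 to 4000 bp to 0.38 and the Fosb mean beyond -2000 bp to 0.39, while the Fosl2 mean from 2000 to 4000 bp was 1.15. With normexp the Fosl2 mean there was 0.96, close to 0.94 from -2000 to -500 bp, and it was 0.49 from 500 to 2000 bp. Jun was then highest from 500 to 2000 bp (1.19), with 1.07 at the start. These are means of neighbouring probes from 1 hybridisation, without a test.

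**Figure D3:**
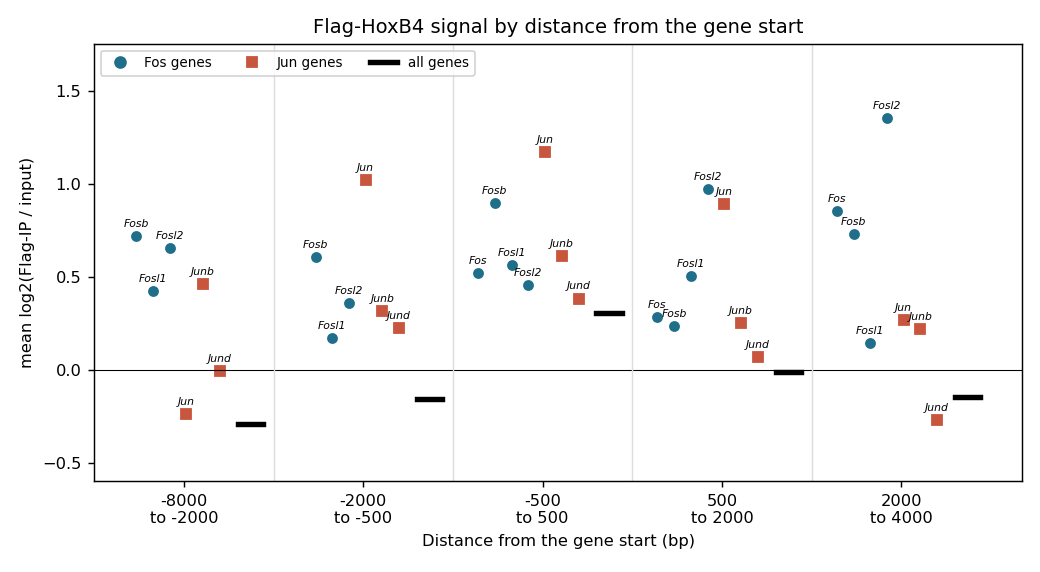
Mean log2 Flag-IP over input (y axis) in 5 zones of distance from the gene start in bp (x axis), 1 labelled point per gene and a black bar for all genes. On this median-centred scale Jun is highest around the start and Fosl2 from 2000 to 4000 bp. On it 1 zone mean, that of Jund from 2000 to 4000 bp, lies below the bar of all genes (5 do with the brightness trend removed).

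Genes that work with AP-1 were described by the same measure. A highest window is taken over all windows of a gene, and the lists below were not matched to all genes in this number. It ran from 17 to 41 in the partner genes, 16 to 66 in the regulators, 22 to 42 in the immediate early genes and 16 to 46 in the targets. The median gene had 25, and most of the immediate early genes had more. Of 23 other AP-1 and bZIP partner genes measured, such as those of the Atf, Maf and Bach factors, 15 reached a window of 1 and 0 reached 2, against 41.8% and 2.9% of all genes. Their median highest window was 1.26. Atf3, a stress-induced repressor, had 1.67, Bach2 1.59 and Maff 1.57, while Batf, an AP-1 factor of lymphocytes, had 0.56 and Crem -0.33. The 22 upstream regulators of Fos and Jun had a median of 1.11, with 15 at 1 and 0 at 2, against the same 41.8% and 2.9%. Map2k7, which activates JNK, reached 1.81, Elk3, a partner of the serum response factor, 1.71, and Stat3 1.48, and the lowest were Map2k4 (0.30), the other JNK activator, and Mapk8 (0.19), which encodes JNK1.

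Of 23 other immediate early genes, 18 reached 1, against 41.8% of all genes, and their median was 1.33. Dusp6, a phosphatase that shuts off ERK, was the 1 gene at 2, with a window of 2.36 at -124 bp (probes from 1.56 to 2.69). With the trend removed it read 1.90 and 0 of the 23 reached 2, against 1.09% of all genes, and with normexp 4 of the 23 did, against 4.41%. Myc had 1.95 at 1180 bp and Dusp1 1.85 at -5325 bp, while Ccn1 (0.65) and Egr3 (0.44) were lowest. Of 24 AP-1 target genes, 18 reached 1 and 3 reached 2, against 41.8% and 2.9% of all genes, with a median of 1.12. The 3 were Vim, the intermediate filament gene (2.35 at 1246 bp), Hmox1, encoding heme oxygenase (2.08 at -3099 bp), and Mt2, a metallothionein gene (2.03 at 570 bp). With the trend removed these 3 read 1.84, 1.98 and 1.45, and the 1 target at 2 was Hbegf, a growth factor gene named after its values were seen (2.22, against 1.39 on the main scale). With normexp 2 of the 24 targets, Vim and Hmox1, stayed at 2. The lowest were the protease gene Mmp3 (0.14) and the death receptor gene Fas (-0.16). A window at or below -1 was also present in 8 of the 23 partner genes, 7 of the 22 regulators, 6 of the 23 immediate early genes and 9 of the 24 targets, against 54.1% of all genes. With the trend removed the genes at 1 numbered 11 of 23, 8 of 22, 18 of 23 and 11 of 24 in the same order, against 34% of all genes. With normexp they numbered 19 of 23, 15 of 22, 19 of 23 and 16 of 24, against 50.4%.

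**Figure D4:**
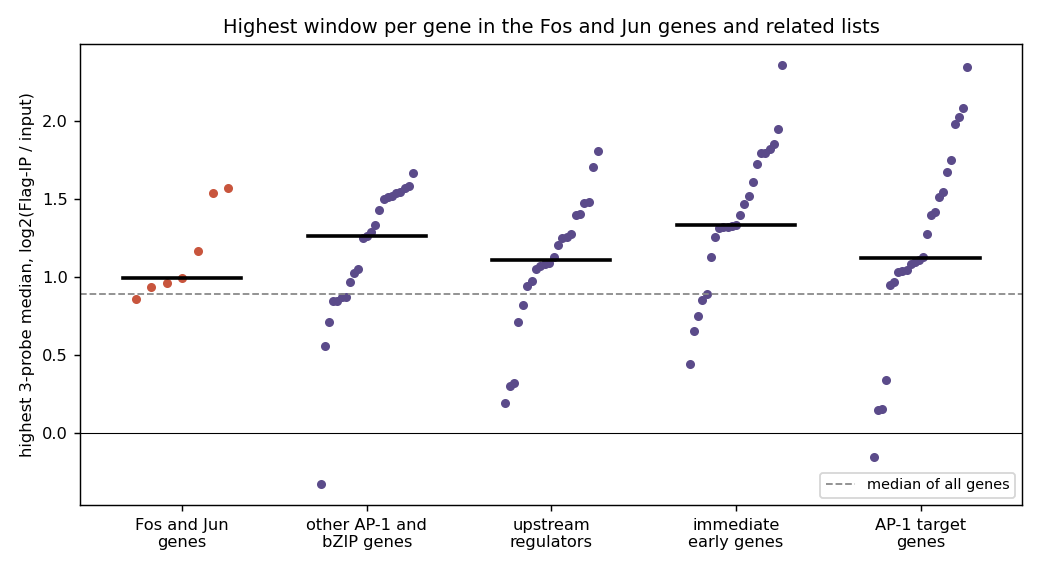
Highest window of each gene (y axis, log2 Flag-IP over input) in the 7 Fos and Jun genes and in 4 related lists (x axis), 1 point per gene sorted by value, with black bars at the list medians and a dashed line at the median of all genes (0.89). On this median-centred scale the medians of the 4 lists, from 1.11 to 1.33, lie above that of the Fos and Jun genes (0.99). With the trend removed the regulators (0.86) were close to the Fos and Jun genes (0.85). With normexp the regulators (1.23) and targets (1.18) were below them (1.27). The number of windows per gene was not matched between the lists or to all genes.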

How the data were processed

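Members and gene lists were chosen with earlier results of these data known. The intensities are processed signals of Agilent Feature Extraction 10.1.1.1, with background subtraction, spatial detrending and 1 linear scale factor per dye, per the file headers. The deposited log10 ratios (LogRatio column and value tables) served as an alternative; the value tables equal that column within 1e-05 for 237157 of 237195 and 237107 of 237185 probes, and their medians, 0.0181 and 0.0207, show no centring. Log2 of Flag-IP (Cy5) over input (Cy3) was centred on each array's median (0.06 and 0.07), leaving out control spots and 19 and 38 outlier-flagged probes; no probe was saturated. Windows took 3 probes of the gene with starts at most 1000 bp apart. The brightness trend was a lowess fit (fraction 0.3); normexp (limma 3.58.1, R 4.3.3, offset 50) started from mean and background intensities. Gene names came from RefSeq tables: of 16908 symbols, 16334 matched by accession, 348 by symbol, 179 by synonym, and 135 were kept. All 7 genes are named, and from each list the 3 highest, the 2 lowest and any at 2. Window code was tested on simulated data. Atf6, Egr4, Dusp5 and Nr4a3 were not used here. The number of arrays limits precision.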

Additional observations from a re-analysis of the deposited data

How the results depend on the processing

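No paired analysis was possible because each region was measured in 1 sample, with no test. The number of Fos and Jun genes with a window at 1, 3 on the main scale, was 6 with normexp (against 50.4% of all genes) and 6 without centring (against 46.6%); Junb, Fosl1 and Fos lie just under 1. The number with a window at or below -1, 0 on the main scale, was 1 with the brightness trend removed. The count of 0 of the 7 genes at 2 was the same under the alternatives run. Of all genes, 1.04% (5 neighbouring probes) to 4.41% (normexp) reached 2 under them. The 7 of 7 means above 0 near the start were also the same. Of all genes, 67.2% (within 1000 bp) to 78.2% (normexp) had such a mean under the alternatives. With the trend removed, upstream regulators at 1 numbered 8 in place of 15 and AP-1 targets 11 in place of 18. At 2, immediate early genes numbered 0 with the trend removed and 4 with normexp in place of 1, AP-1 targets 1 and 2 in place of 3, and upstream regulators 0 and 1 (Map2k7, 2.05) in place of 0. The highest window of Fas was 0.29 with the trend removed and 0.19 with normexp, against -0.16 on the main scale. In each case the cause was not tested. Over all alternatives, including windows assigned by their middle probe, chosen after seeing the data, the highest window ran from 1.41 to 1.81 in Jun, 1.27 to 1.60 in Fosl2, 1.03 to 1.59 in Fosb, 0.85 to 1.42 in Junb, 0.79 to 1.11 in Fosl1, 0.73 to 1.22 in Jund and 0.61 to 1.00 in Fos. Normexp moved it by more than the spread of its probes in 3 of the 7 genes (Fosl2, Junb and Jund), and the other alternatives in 0. Probes not well above background enter the mean near the start of Fos and Fosl2 and the lowest window of Jund. They also enter the Fosl2 run from 780 to 2454 bp and the highest windows of Fosl2 (trend removed, normexp) and Fosl1 (trend removed).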
